A study of Drosophila melanogaster with 6 samples.

Results

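Aminoacyl-tRNA synthetases, the enzymes that load amino acids onto their tRNAs, were measured in whole Drosophila melanogaster embryos whose mothers carried either 6 or 2 copies of bicoid. The members were taken by name: every probe set whose only gene symbol is an amino acid code followed by RS, with or without the ending -m that marks the mitochondrial enzyme. This gave 32 probe sets of 30 genes among the 18769 probe sets of the array without controls. By the ending -m alone, 18 probe sets of 16 genes were counted as cytosolic and 14 probe sets of 14 genes as mitochondrial. A gene without this ending that serves both compartments would be counted as cytosolic only. TrpRS had 3 probe sets and every other member had a single probe set. Together the members serve all 20 amino acids, 17 by a cytosolic enzyme, 14 by a mitochondrial one and 11 by both.

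Each synthetase recognises its amino acid and the matching tRNAs, joins them at the cost of ATP, and so sets the accuracy with which codons are read. The enzymes fall into 2 unrelated structural classes, class I and class II. In animals several cytosolic synthetases sit together in a large complex held by the scaffold proteins AIMP1, AIMP2 and AIMP3. Mitochondria charge their own tRNAs, mostly with separate enzymes that are encoded in the nucleus and imported. Every cell of the embryo that makes protein needs both sets, and the genes are commonly counted as housekeeping genes.

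The 6xbcd embryos came from TT16 males crossed to bcd+t8 females, and the 2xbcd controls from TT16 males crossed to TT16 females. Fathers of both groups were thus TT16, while the mothers' stock, their number of bcd copies and the embryos' own genotype differed together and cannot be told apart. Each of 3 arrays per group, labelled biological replicates, carried RNA of more than 100 dechorionated embryos, laid within 90 min and kept for 8 h at 25 degrees, which the labels place at stages 12 to 13, when the germ band retracts. The value is a signal on a linear scale, set by the authors to a common trimmed mean of 500 per array. Each array pools embryos of all tissues, and fewer cells of a type cannot be told apart from less RNA per cell.

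Between 9697 and 10474 probe sets had a present call on an array, and 10137 were tested. The arrays differed along a main axis with 53.5% of the variance, on which 2xbcd replicates 2 and 3 stood apart at 19.1 and 39.4, against -22.3 for 2xbcd replicate 1 and -21.6 to 6.87 for the 6xbcd arrays. The bcd transcript, which checks the labels, read 2335, 1497 and 1375 in 6xbcd and 861, 546 and 301 in 2xbcd embryos (limma adjusted p = 0.0189 with the replicate number as a block, 0.118 without it). Of 11 markers of embryonic tissues, 7 had a probe set of their own and all 7 were present on every array. Their summed signal ranged from 13767 to 14949 in 6xbcd and from 13255 to 16676 in 2xbcd embryos. The neuronal gene elav alone read 7302 to 8349 in 6xbcd and 6901 to 9457 in 2xbcd embryos. The sum thus mainly follows elav and says little of the dimmer markers. None of the 7 passed the test. An unadjusted p under 0.05 was found for 4 of them, beside 14.9% of all tested probe sets, and these 4 lay on both sides of 0. Hand, a heart gene, had a log2 change of -0.45 (limma adjusted p = 0.0532) and repo, a glial gene, -0.21, while GATAe, a midgut gene, had 0.33 and srp, a gene of blood cells and fat body, 0.26. The part of tissue makeup in the synthetase values was not tested. Of 7 markers of adult flies and ovaries, such as the yolk protein gene Yp1 and the eggshell gene Cp36, 6 had a probe set, and all 6 were absent on every array.

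All 32 synthetase probe sets had a present call on all 6 arrays, against 46.5% of all probe sets. Both the cytosolic and the mitochondrial enzymes were thus measured throughout in embryos of either cross. Signals moved little between arrays. The median distance between the highest and the lowest of the 6 arrays was 0.37 on the log2 scale for the members, 0.50 for all tested probe sets and 0.43 for the 7979 tested probe sets at least as bright on average as the dimmest member. It was smallest for MetRS-m (0.17) and largest for GlnRS (0.67), and under 0.5 for 29 of 32 probe sets.

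**Figure D1:**
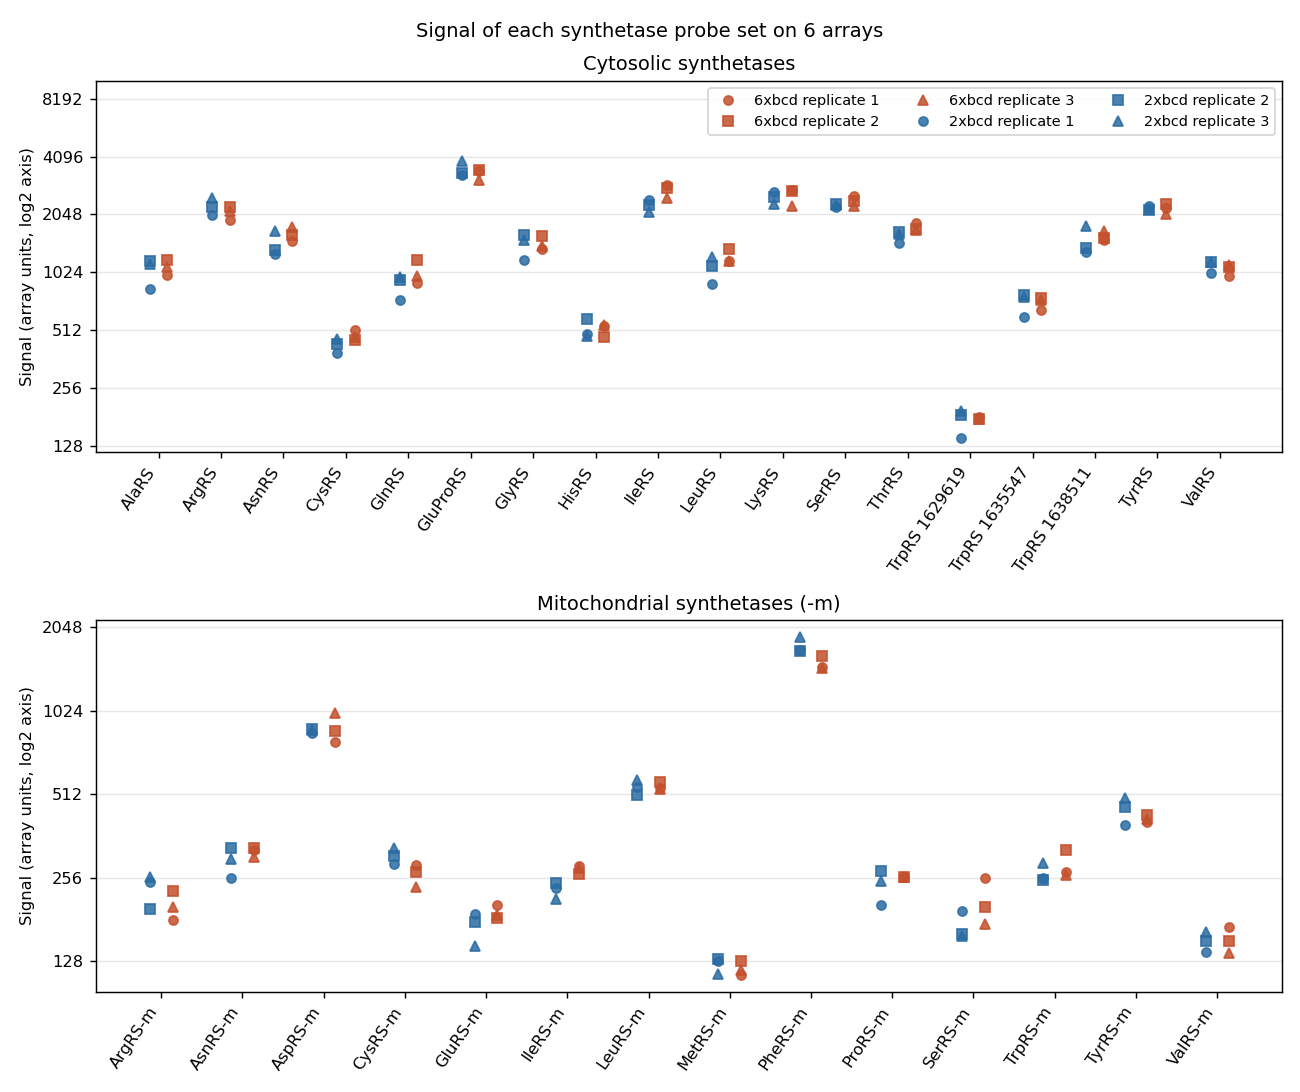
Signal of each synthetase probe set (vertical axis, array units on a log2 axis) on the 6 arrays, with cytosolic enzymes above and mitochondrial enzymes below. Red marks stand for 6xbcd and blue for 2xbcd embryos, and the mark's shape gives the replicate; for most enzymes the colours overlap, while 2xbcd replicate 1 (blue circles) lies lowest for 11 of 18 cytosolic probe sets.

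In the comparison of 6xbcd with 2xbcd embryos the synthetases had small log2 changes that did not pass the test over all probe sets. With limma, 0 of 32 members passed an adjusted p of 0.05, where 1.32% of all tested probe sets did (0.75% higher and 0.572% lower in 6xbcd). At so low a background share the count of 0 does not set the members apart. At an unadjusted p under 0.05 there were 3 members, IleRS, AsnRS and PheRS-m, and 14.9% of all tested probe sets. The log2 changes, 6xbcd over 2xbcd on log2(signal + 16), ran from -0.22 for CysRS-m to 0.26 for SerRS-m, that is from 0.86-fold to 1.2-fold. A change of over 0.3 in size was seen in 0 members and in 19.9% of all tested probe sets. The 95% intervals of the members together reached from -0.63 to 0.64, so that each of the 32 lay within a 2-fold difference in either direction, as did 87.6% of all tested probe sets. The shares of 19.9% and 87.6% include probe sets dimmer on average than the dimmest member, and were not computed without them. The median standard error was 0.0946 for the members and 0.114 for all tested probe sets. For the 7979 tested probe sets at least as bright on average as the dimmest member it was 0.0929.

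**Figure D2:**
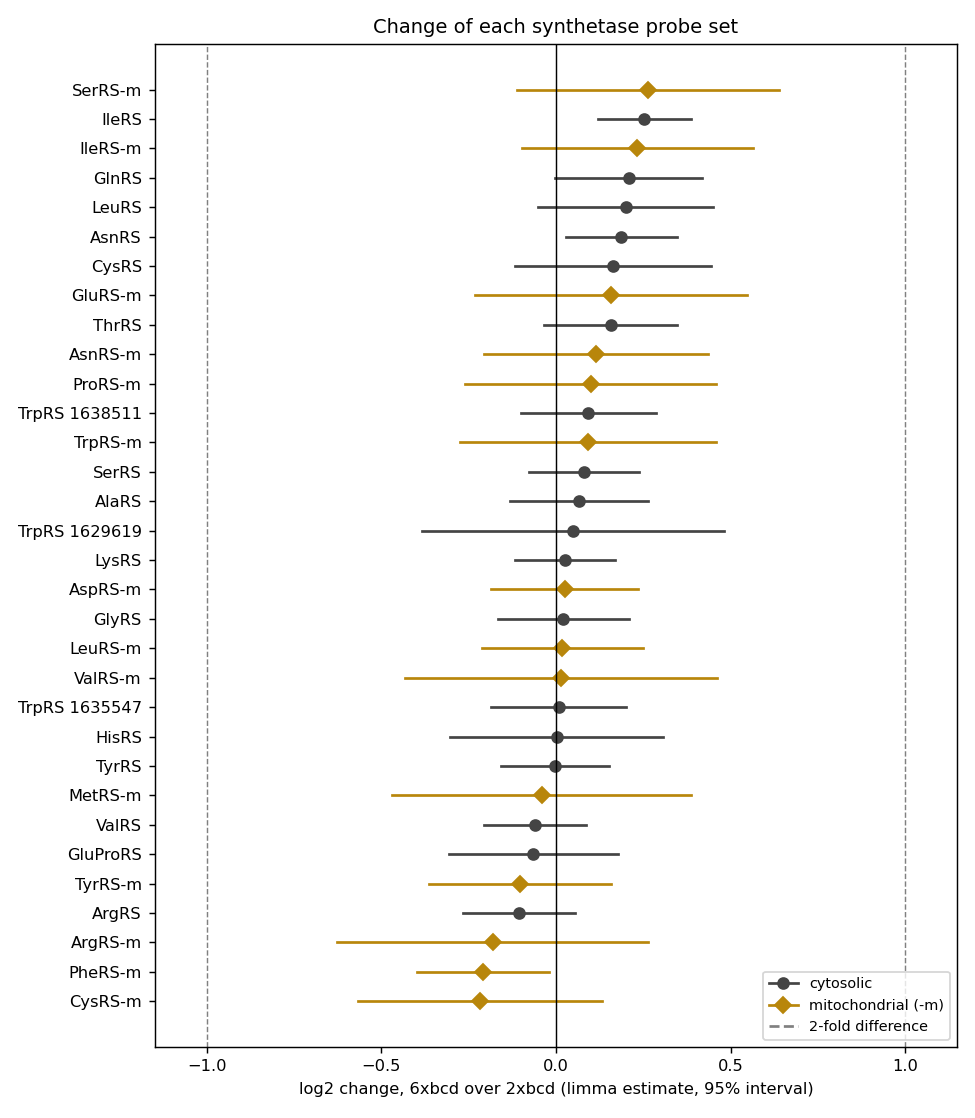
Log2 change of each synthetase probe set, 6xbcd over 2xbcd (horizontal axis), with its 95% interval from limma; circles are cytosolic and diamonds mitochondrial enzymes, and dashed lines mark a 2-fold difference. All intervals lie between the dashed lines, and those of IleRS, AsnRS and PheRS-m leave out 0 before adjustment.

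A positive log2 change was found for 23 of 32 members and for 52.7% of all tested probe sets. Without 2xbcd replicate 1, in a fit without the block, it was found for 17 members and 50.1% of all tested probe sets, and with median scaling for 18 members and 47.1%. The median was 0.06 over the 18 cytosolic probe sets, 14 of them above 0, and 0.02 over the 14 mitochondrial ones, 9 of them above 0, beside 0.01 over all tested probe sets. With median scaling the mitochondrial median was -0.0030 and the cytosolic one 0.03. The cytosolic median was 0.20, 0.06 and -0.05 in pairs 1, 2 and 3, and the mitochondrial one 0.05, 0.0028 and -0.04. In each compartment the medians of the pairs thus spanned 0. All 3 pairs were positive for 9 members and for 19.7% of all tested probe sets, and all 3 negative for 4 members and for 19.3%.

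Among the cytosolic enzymes of the animal complex, IleRS, which charges isoleucine, came nearest to the threshold. It read 2898, 2795 and 2481 in 6xbcd replicates 1 to 3 and 2446, 2287 and 2119 in 2xbcd replicates 1 to 3. Every 6xbcd array was above every 2xbcd array. The means were 2725 ± 217 and 2284 ± 164 (SD, n = 3), with a log2 change of 0.25, a standard error of 0.0533 and a limma adjusted p of 0.123. Without the replicate block the adjusted p was 0.406.

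GlnRS and LeuRS, which charge glutamine and leucine, had the next largest positive changes of the complex. GlnRS read 895, 1179 and 974 in 6xbcd and 733, 937 and 964 in 2xbcd embryos, a log2 change of 0.21 (SE 0.0848, limma adjusted p = 0.342). LeuRS read 1170, 1349 and 1171 in 6xbcd and 889, 1109 and 1230 in 2xbcd embryos, a log2 change of 0.20 (SE 0.101, limma adjusted p = 0.426). The groups overlapped for both genes, and 2xbcd replicate 1 was the lowest array in each.

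ArgRS, the arginine enzyme, lay on the other side of 0. Its signal was 1917, 2228 and 2134 in 6xbcd and 2042, 2240 and 2486 in 2xbcd embryos, a log2 change of -0.11 (SE 0.0637, limma adjusted p = 0.492). GluProRS, a fusion protein that charges both glutamate and proline, had -0.07 and LysRS, the lysine enzyme, 0.03. Over the 6 complex genes measured here the median log2 change was 0.11, with 4 above and 2 below 0, and over the other 12 cytosolic probe sets it was 0.06, with 10 above and 2 below.

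Outside the complex, AsnRS had the largest change of the cytosolic members. It read 1490, 1606 and 1761 in 6xbcd and 1279, 1329 and 1671 in 2xbcd embryos, so that the groups overlapped through 2xbcd replicate 3. Its log2 change was 0.19 (SE 0.0639, limma adjusted p = 0.277, and 0.691 without the block). ThrRS, the threonine enzyme, read 1837, 1728 and 1692 in 6xbcd and 1448, 1652 and 1614 in 2xbcd embryos. Its groups did not overlap, at a log2 change of 0.16 (SE 0.0763, limma adjusted p = 0.411). CysRS had 0.16, SerRS 0.08, AlaRS 0.07, GlyRS 0.02, HisRS 0.0020, TyrRS -0.0019 and ValRS -0.06, with limma adjusted p values from 0.548 to 0.997. With quantile or median scaling the values of HisRS, TyrRS and GlyRS came out on the other side of 0 under at least 1 of the scalings.

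The 3 probe sets of TrpRS, the tryptophan enzyme, all had changes near 0. Their log2 changes were 0.09, 0.05 and 0.0082, with standard errors of 0.0774, 0.173 and 0.0776. The first read 1513, 1541 and 1679 in 6xbcd and 1312, 1369 and 1790 in 2xbcd embryos. The second read 182, 176 and 176 against 140, 184 and 194, and the third 649, 755 and 730 against 596, 775 and 760, in the same order. In each of the 3 probe sets 2xbcd replicate 1 was the lowest array, and the highest was 2xbcd replicate 3 in the first and second and 2xbcd replicate 2 in the third. The probe sets share their RNA and are not replicates of each other.

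Of the mitochondrial enzymes, SerRS-m and IleRS-m had the largest positive changes. SerRS-m read 255, 201 and 174 in 6xbcd and 194, 161 and 158 in 2xbcd embryos, with a log2 change of 0.26 (SE 0.151, limma adjusted p = 0.473). IleRS-m read 282, 265 and 278 in 6xbcd and 235, 245 and 215 in 2xbcd embryos, with a log2 change of 0.23 (SE 0.133, limma adjusted p = 0.473). The groups overlapped for SerRS-m and did not for IleRS-m.

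CysRS-m and PheRS-m had the largest negative changes of all members. CysRS-m read 283, 267 and 237 in 6xbcd and 287, 307 and 328 in 2xbcd embryos, a log2 change of -0.22 (SE 0.14, limma adjusted p = 0.522). PheRS-m, the single-chain phenylalanine enzyme of mitochondria, read 1478, 1612 and 1458 in 6xbcd and 1701, 1678 and 1887 in 2xbcd embryos, a log2 change of -0.21 (SE 0.0756, limma adjusted p = 0.297, and 0.451 without the block). For both genes every 6xbcd array was below every 2xbcd array.

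In all, 3 members (IleRS, IleRS-m and ThrRS) had all 6xbcd arrays above the 2xbcd arrays and 2 (CysRS-m and PheRS-m) had them below, against 7.38% and 8.68% of all tested probe sets. ArgRS-m read 180, 229 and 201 in 6xbcd and 246, 197 and 257 in 2xbcd embryos, with a log2 change of -0.18 (SE 0.179, limma adjusted p = 0.679). TyrRS-m read 408, 430 and 417 in 6xbcd and 398, 462 and 497 in 2xbcd embryos, with a log2 change of -0.10 (SE 0.105, limma adjusted p = 0.686). Both genes overlapped between the groups. MetRS-m had a log2 change of -0.04 and the other 7 mitochondrial members between 0.02 and 0.16. The median standard error was 0.142 for the mitochondrial and 0.0768 for the cytosolic probe sets, beside 0.114 for all tested probe sets.

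For 11 amino acids both a cytosolic and a mitochondrial enzyme were measured. With the TrpRS probe set of the highest mean signal, the log2 changes had the same sign in 7 of these pairs and opposite signs in 4. The single value of GluProRS serves both glutamate and proline and so makes 2 of the 4 opposite pairs. The tyrosine, valine and leucine pairs rest on TyrRS (-0.0019), ValRS-m (0.02) and LeuRS-m (0.02), whose signs turned under at least 1 other scaling. For isoleucine they were 0.25 and 0.23, and for arginine -0.11 and -0.18. For cysteine they were 0.16 in the cytosolic and -0.22 in the mitochondrial enzyme. These signs are those of changes that did not pass the test.

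The structural classes were set side by side without a test. The median log2 change was 0.02 over 19 class I probe sets, with 12 above 0. It was 0.07 over 12 class II probe sets, with 11 above 0, beside 52.7% of all tested probe sets above 0. In pairs 1, 2 and 3 the median was 0.10, 0.07 and -0.08 for class I. For class II it was 0.20, 0.0081 and 0.03. GluProRS holds an enzyme of each class and was left out of both. Among the 3 X-linked members, LysRS, ArgRS and HisRS, the median was 0.0020 and the changes ran from -0.11 to 0.03.

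The largest departure of the cytosolic synthetases was seen in a single control array. In 2xbcd replicate 1 their median deviation from each probe set's own mean was -0.20 on the log2 scale, and on the other 5 arrays it lay between -0.0027 and 0.08. The mitochondrial synthetases had a median deviation of -0.02 in 2xbcd replicate 1, and all tested probe sets -0.0012. This array was the lowest of the 6 for 11 of 18 cytosolic probe sets, which belong to 9 of the 16 genes, and for 3 of 14 mitochondrial ones, as it was for 19.1% of all tested probe sets. It was the highest for 0 of 32 members and for 18.3% of all tested probe sets.

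AlaRS, the alanine enzyme, shows the pattern, with 838 in 2xbcd replicate 1 and 992 to 1179 on the other 5 arrays. GlyRS read 1189 in that array and 1358 to 1603 on the others. LysRS and TyrRS did not follow it and lay above their own means on that array, by 0.09 and 0.05 on the log2 scale. When 2xbcd replicate 1 was left out, in a fit without the block, the cytosolic median change went from 0.06 to 0.01. When 2xbcd replicates 2 and 3 were left out instead, so that 2xbcd replicate 1 was the only control, it was 0.25, with 0 members called. A fit that replaced the block by each array's position on the main axis gave a cytosolic median of 0.18 and called 0 members. On the main axis 2xbcd replicate 1 (-22.3) lay near 6xbcd replicates 1 and 3 (-21.45 and -21.57), while 2xbcd replicates 2 and 3 stood apart. What set the cytosolic synthetases lower on 2xbcd replicate 1 was not tested.

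**Figure D3:**
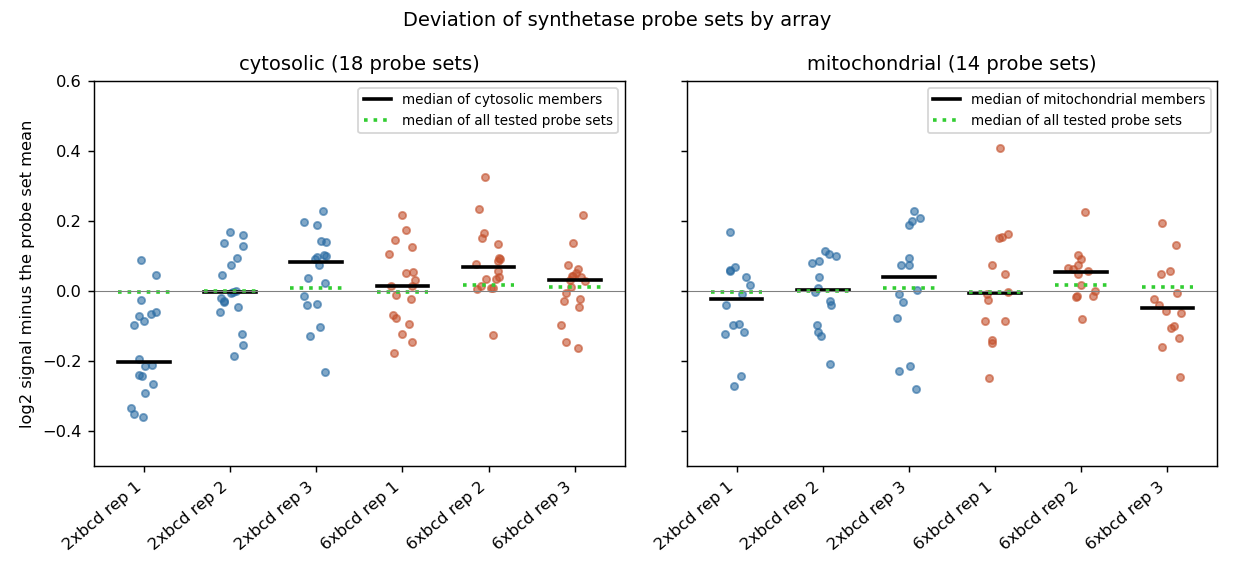
Log2 signal minus the mean of the same probe set over the 6 arrays (vertical axis) for each synthetase probe set on each array, with cytosolic enzymes on the left and mitochondrial enzymes on the right. Black bars are the medians of the members and green dotted bars those of all tested probe sets; the cytosolic median is -0.20 in 2xbcd replicate 1, and on all other arrays the medians of both compartments lie between -0.05 and 0.08.

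The authors also compared the arrays of each numbered pair. Of the 96 member values, 32 in each of 3 pairs, the authors' deposited table called 91 no change. IleRS had an increase call in pairs 2 and 3, ValRS in pair 2 and HisRS in pair 3, and PheRS-m had a decrease call in pair 3. The authors' deposited table thus called 0 members higher in pair 1, 2 in pair 2 and 2 in pair 3, where it called 4.41%, 6.76% and 13.8% of all tested probe sets higher. It called 0, 0 and 1 members lower, against 6.18%, 4.27% and 9.03%.

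For 2 of these genes the authors' ratio and the deposited signals pointed apart. In the authors' deposited table ValRS had a log2 ratio of 0.3 in pair 2, where its signals were 1094 and 1161 and gave a log2 difference of -0.09. HisRS had ratios of 0.3, 0.2 and 0.5 in the authors' deposited table, while its signals gave 0.12, -0.29 and 0.18. Over all member values the median distance between the 2 measures was 0.0823, and over all tested probe sets 0.0854. For IleRS the authors' deposited table gave ratios of 0.2, 0.3 and 0.2, beside signal differences of 0.24, 0.29 and 0.23.

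**Figure D4:**
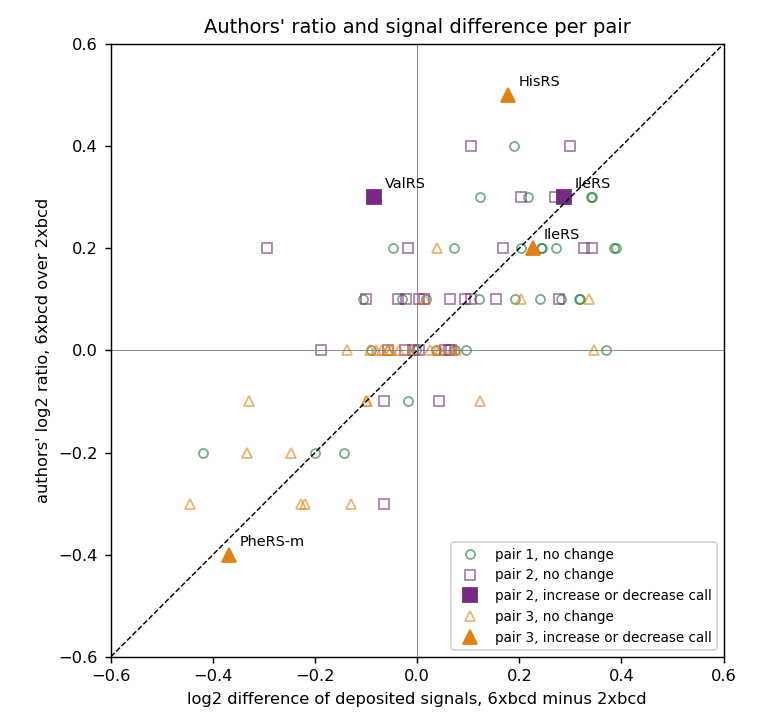
The authors' log2 ratio (vertical axis) against the log2 difference of the deposited signals (horizontal axis), 6xbcd against 2xbcd, for 32 synthetase probe sets in each of 3 pairs; the dashed line marks equal values. Filled marks carry an increase or decrease call; ValRS in pair 2 and HisRS in pair 3 lie above the line, and IleRS and PheRS-m lie close to it.

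Other genes of tRNA charging and translation were tested as fixed lists. In the 5 lists, 41 genes were tested and 0 passed in either direction, beside 1.32% of all tested probe sets. At so low a share the count of 0 does not set the lists apart. An unadjusted p under 0.05 was found for 3 of the 41 genes, beside 14.9% of all tested probe sets. All 3 AIMP scaffold genes lay near 0, with AIMP1 at -0.02, AIMP2 at -0.03 and AIMP3 at -0.05. The cytosolic phenylalanine enzyme, whose subunit names fall outside the naming rule, had 0.06 for alpha-PheRS and 0.21 for beta-PheRS (limma adjusted p = 0.811 and 0.289). Slimp, a mitochondrial protein related to seryl-tRNA synthetases, had 0.21 (limma adjusted p = 0.543). The list median was 0.02 over 6 tested genes.

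Of 7 cytosolic elongation factors 4 were tested (eEF1alpha2, eEF1gamma, eEF1delta and eEF5), with a median log2 change of 0.10. The smallest limma adjusted p was 0.58, for eEF1delta. Of 12 mitochondrial translation factors and subunits of the amidotransferase that makes glutamine on mitochondrial tRNA, 10 were tested, with a median of 0.12. mEFTu2, a mitochondrial elongation factor, had 0.17 (limma adjusted p = 0.415). The changes of gatA and mIF3 were both 0.26, with standard errors of 0.205 and 0.234 (limma adjusted p = 0.597 and 0.650). gatA read 76 in 2xbcd replicate 3 and 132 to 190 on the other arrays.

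A further list held 11 genes of the amino acid stress response and of related stress signalling. In the amino acid response the kinase Gcn2 senses uncharged tRNA, and the factor crc (ATF4) drives synthetase and amino acid genes. Of the 11 genes 8 were tested, with a median of 0.10. Gcn2 had a log2 change of 0.15, PEK 0.10 and crc -0.02, and the smallest limma adjusted p was 0.48, for PEK. The next were scyl at 0.10 and PPP1R15 at 0.09.

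Of 14 genes of tRNA transcription and maturation 13 were tested, with a median of 0.03, and this list held the changes nearest to the threshold. Nsun2, a tRNA cytosine methyltransferase on the X, read 1218, 1178 and 1178 in 6xbcd and 866, 959 and 914 in 2xbcd embryos, with a log2 change of 0.38 (SE 0.068, limma adjusted p = 0.0846). Maf1, a repressor of RNA polymerase III, read 3102, 2597 and 3141 in 6xbcd and 3732, 3215 and 4068 in 2xbcd embryos, with a log2 change of -0.31 (SE 0.0569, limma adjusted p = 0.0876). The groups did not overlap for either gene, and without the block the limma adjusted p was 0.0923 for Nsun2 and 0.425 for Maf1. RtcB, a ligase of tRNA splicing, had 0.13.

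**Figure D5:**
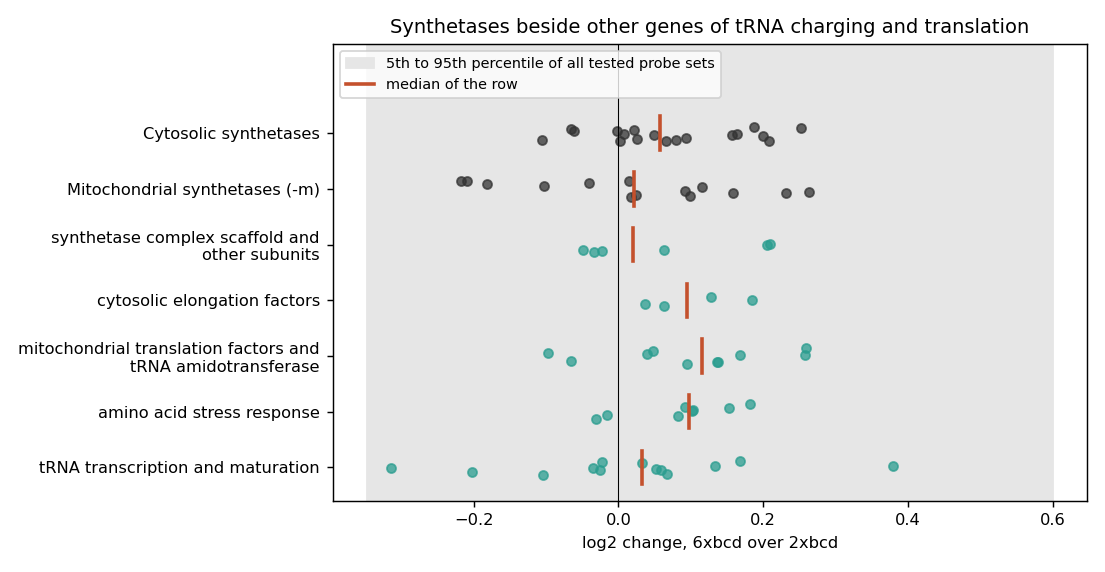
Log2 change, 6xbcd over 2xbcd (horizontal axis), of the cytosolic and mitochondrial synthetase probe sets and of the tested genes of 5 lists; each point is a probe set or gene, red bars are medians, and the grey band runs from the 5th to the 95th percentile of all tested probe sets (-0.35 to 0.60). All points lie inside the band, and Nsun2 (0.38) and Maf1 (-0.31) lie farthest out.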

How the data were processed

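Biotin-labelled targets from 6 total RNA samples were read on Affymetrix Drosophila Genome 2.0 arrays, per the labels. The submitters' processing notes name GCOS without a version. Deposited signals are linear intensity values with a trimmed mean (2% off each end) of 500 on all arrays. Per the file headers, the authors' table also holds, beside detection calls, the authors' log2 ratio of each pair and the p-value and call of the authors' comparison. A second deposited table holds identical signals. For arrays, their number limits the precision.

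Of 18952 probe sets 183 controls were left out. Of the others 13646 had 1 gene symbol in the array annotation, 402 several and 4721 none. Signals were used as log2(signal + 16), so that folds understate changes of dim probe sets. Probe sets called present on 3 or more of the 6 arrays were tested with limma 3.58.1 in R 4.3.3 (lmFit, eBayes with an intensity trend, two-sided, Benjamini-Hochberg over all 10137 at 0.05; 2 residual and 3.56 prior degrees of freedom). Medians of groups have no test.

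The replicate number was a block because the design text calls the experiments paired. Deviations of same-numbered arrays correlated at 0.437, 0.385 and -0.190 across probe sets, so the block rests on that text. On simulated data of 10137 probe sets, in 3 runs, the fit found 75.8% of the probe sets given a log2 change of 1. It found 97.7% of those given 2, and among its calls 7.62% were false. Changes as small as those of the members were not simulated, so the share of them that the fit would find is not known. Every simulated pair of same-numbered arrays shared an effect, which the correlation of -0.190 does not show for pair 3.

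The members, gene lists, classes and tests were chosen with earlier results of these data known. The text names members that were called or had the 5 largest changes in each direction, probe sets of a shared gene, and of each list the genes with the smallest p. The other members, and AIMP1, AIMP2, AIMP3, mIF3, Gcn2, crc and the tissue markers, were named after their values were seen. Alternatives dropped the block, the intensity trend or the filter, required presence on all 6 arrays, scaled by quantiles or medians, used offsets of 1 or 64, a threshold of 0.1 or the second table, left out single pairs or arrays, took the main axis as covariate, and kept 1 probe set per gene. Leaving out 2xbcd replicates 2 and 3 together was added after seeing the data. The planned search for sequence motifs was not run.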

Additional observations from a re-analysis of the deposited data

How the results depend on the processing

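No synthetase was called under any of the 22 alternatives, and the smallest limma adjusted p of a member was 0.0829 (IleRS with quantile normalization). The largest change in size was 0.458, for LeuRS with 2xbcd replicate 1 as the only control. The replicate block changed no call of a member. The number of probe sets called over the whole array was 134 with the block and 97 with no replicate block, and it moved to 5 without the intensity trend, 247 at a threshold of 0.1, 15 without the block and without 2xbcd replicates 2 and 3, and between 10 and 270 when a pair or an array was left out (17 without replicate 1, 10 without replicate 2, 270 without replicate 3). The cytosolic median was 0.254 with 2xbcd replicate 1 as the only control and ran from 0.0149 to 0.125 when a pair or an array was left out, and the mitochondrial median ran from -0.00567 to 0.0730 in the same fits. The largest change that turned its sign was 0.106 in size, a limit that was thus set by the turns themselves. Of the 19 members up to that size, 17 turned their sign at least once. They did so in 60 of the 285 values from the 15 alternatives that alter a log2 change. The number of members above 0, 23 of 32, ranged down to 17 (without 2xbcd replicate 1) and up to 26 (2xbcd replicate 1 as the only control). With quantile normalization the members that turned their sign were TyrRS (0.0042), HisRS (-0.0236), ValRS-m (-0.0822), LeuRS-m (-0.0066) and the second TrpRS probe set (-0.0323). With median scaling they were HisRS (-0.0224), the third TrpRS probe set (-0.0162), ValRS-m (-0.0092), LeuRS-m (-0.0062) and GlyRS (-0.0030). With the main axis as covariate they were ArgRS (0.0019), TyrRS-m (0.0025), GluProRS (0.0201), ValRS (0.0122), HisRS (-0.0246) and LysRS (-0.0143). With 2xbcd replicate 1 as the only control they were ArgRS (0.0321), TyrRS-m (0.0694), GluProRS (0.0280), ValRS (0.0655) and LysRS (-0.0756). With a pair or an array left out the ranges were -0.135 to 0.0687 for GluProRS, -0.0899 to 0.0101 for MetRS-m, -0.0558 to 0.0451 for TyrRS, -0.0853 to 0.15 for HisRS, -0.111 to 0.0746 for the third TrpRS probe set, -0.0974 to 0.139 for the second TrpRS probe set, -0.113 to 0.137 for ValRS-m, -0.0498 to 0.0763 for LeuRS-m, -0.106 to 0.107 for GlyRS, -0.0673 to 0.104 for AspRS-m, -0.0319 to 0.114 for LysRS, -0.0850 to 0.151 for AlaRS, -0.0329 to 0.207 for TrpRS-m and -0.0102 to 0.182 for ProRS-m. The cause of these turns was not tested. With 2xbcd replicate 1 alone, its spread was taken to be that of the 6xbcd arrays.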

Other observations

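GluRS-m and TyrRS are next to each other in the order of protein-coding genes on chromosome 3L in the reference assembly. GluRS-m, the mitochondrial glutamate enzyme, read 204, 182 and 188 in 6xbcd and 190, 177 and 146 in 2xbcd embryos, and TyrRS, the cytosolic tyrosine enzyme, read 2217, 2314 and 2052 in 6xbcd and 2265, 2149 and 2172 in 2xbcd embryos. Their log2 changes were 0.16 and -0.0019, and neither passed the test.

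ProRS-m, the mitochondrial proline enzyme, had nearly equal signals on the 6xbcd arrays, at 257.9, 257.9 and 257.6, while the 2xbcd arrays read 203.5, 270.5 and 249.3. Its log2 change was 0.10 (SE 0.144). HisRS had its highest signal (581) in 2xbcd replicate 2 and its lowest (471) in 6xbcd replicate 2, the other array of the same number.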
